A study of Mus musculus with 6 samples.

Results

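Fibroblasts made up 754 of the 50910 kidney barcodes kept from 6 mice. A barcode was kept when it held at least 1000 UMIs (unique molecular identifiers, each standing for 1 captured RNA molecule) and no more than 50% mitochondrial UMIs. It was a fibroblast when it held UMIs of at least 4 of the 6 genes Col1a1, Col1a2, Col3a1, Dcn, Pdgfra and Lum, no UMI of the leukocyte gene Ptprc, the endothelial gene Pecam1 or the smooth muscle gene Myh11, and no more than 0.2% of its UMIs from the proximal tubule genes Lrp2, Slc34a1, Slc5a12 and Slc22a6. Measured values therefore chose the cells, and none of these 13 genes was tested. Values of some of them are given below as a description. Sham 1, 2 and 3 held 20, 3 and 7 fibroblasts, and DOCA-salt 1, 2 and 3 held 204, 252 and 268. Values are given in this order of mice throughout.

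All mice were male C57BL/6 animals of 8 to 10 weeks. The DOCA-salt mice lost the left kidney, and 1 week later received a 50 mg pellet of deoxycorticosterone acetate (DOCA, a precursor steroid that acts on the mineralocorticoid receptor) and drank 1% NaCl for 21 days. The Sham mice had a sham operation, no pellet and plain water. The loss of 1 kidney, the steroid and the salt came together in 1 group, and their parts in any difference cannot be told apart. Each library was made from the kidney of 1 mouse with 10x Genomics 3′ chemistry.

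Kidney fibroblasts lie between tubules and vessels, and a smaller set sits in the adventitia, the loose outer coat of arteries. They make collagens, elastic fibre proteins and other matrix, and they send and receive TGF-beta, PDGF and Wnt signals. In fibrosis some of them take on contractile proteins such as smooth muscle actin and are then called myofibroblasts, while the adventitial cells are known by genes such as Pi16, Dpt and Cd55.

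The 6 libraries held 93172739 to 137819127 UMIs in 11058 to 14449 barcodes. Any pair of libraries shared 33 to 69 barcode sequences, 0.258 to 0.525% of the smaller library, and none of the shared barcodes was a fibroblast in both. The median fibroblast held 4964.5, 6646 and 3713 UMIs in the Sham mice and 10358.5, 12935 and 10751.5 UMIs in the DOCA-salt mice. The rule asks for detected genes, so a deeper cell passes it more easily. Just outside the rule, 0, 1 and 0 Sham cells and 7, 29 and 7 DOCA-salt cells held 3 of the 6 marker genes; just inside it, 1, 1 and 1 Sham cells and 52, 48 and 52 DOCA-salt cells held exactly 4. The summed Sham fibroblasts held 188205 UMIs and the summed DOCA-salt fibroblasts 8826298, so 1 UMI was worth 7.12, 57.6 and 32.8 CPM (counts scaled to the same total in each mouse) in the Sham sums and less than 0.5 CPM in each DOCA-salt sum.

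Levels in these cells were set beside those in the rest of the kidney. Of the genes outside the rule, Mfap4, a protein of elastic microfibrils, was 72.1 to 306 times as high per UMI in DOCA-salt fibroblasts as in all other kept barcodes of the same mouse. The same ratio was 71.7 to 435 for the retinol carrier Rbp4, 65.6 to 148 for the microfibril protein Mfap5, 58.2 to 127 for the matricellular protein Smoc2 and 52.8 to 116 for matrix Gla protein, Mgp. Fbn2, Adamts2, Epha3, Frem1, Fbln1 and Cygb completed the 11 such genes outside the rule. These ratios describe cells that were chosen by expression and were not tested.

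Markers of other cell types were present in the sums, some of them at high levels. The 5 genes listed for T or NK cells summed to at most 7.12 CPM in any mouse. The 10 macrophage genes summed to 28.5, 0 and 65.6 CPM in the Sham mice and 185, 251 and 168 CPM in the DOCA-salt mice. The 9 endothelial genes, Pecam1 among them at 0 by the rule, summed to 107, 288 and 65.6 CPM and then 326, 353 and 358 CPM. Both of these sums were higher in every DOCA-salt mouse than in any Sham mouse. The 10 proximal tubule genes, 4 of them limited by the rule, summed to 3741, 1786 and 8427 CPM in the Sham mice and 2704, 2216 and 2446 CPM in the DOCA-salt mice. The 14 mural cell genes, Myh11 among them at 0 by the rule, summed to 912, 2362 and 853 CPM in the Sham mice and 3493, 3219 and 3851 CPM in the DOCA-salt mice. The 6 distal tubule genes summed to 1083, 57.6 and 426 CPM and then 383, 651 and 353 CPM. The median share of mitochondrial UMIs, a sign of cell damage, was 6.37, 5.27 and 15.9% in the Sham fibroblasts and 4.32, 4.72 and 4.93% in the DOCA-salt fibroblasts, so it was higher in each Sham mouse. By the edgeR test described below, 1 of 5 tested endothelial genes (Emcn) and 2 of 8 macrophage genes (Lyz2 and Cd74) were called higher. So were 1 of 2 podocyte genes (Synpo) and 1 of 6 distal tubule genes (Slc12a1). Sham 2 lay above the DOCA-salt mice in Emcn, and Sham 3 inside their range in Cd74. Another distal tubule gene (Calb1) and 5 of 6 proximal tubule genes were called lower. The part of such RNA in the changes below was not tested.

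The share of fibroblasts among kept barcodes was 0.225, 0.0416 and 0.0806% in the Sham mice and 2.34, 2.77 and 3.22% in the DOCA-salt mice. The exact 95% binomial intervals ran from 0.00859 to 0.347% over the Sham mice and from 2.04 to 3.62% over the DOCA-salt mice, and they cover counting error only. The group means were 0.116 ± 0.0966% and 2.78 ± 0.439% (SD, n = 3 each), 24.0-fold apart, and the groups did not overlap. An exact two-sided permutation test over the 6 mice gave p = 0.1, the smallest value that 3 against 3 can give. The mural cells, the contractile cells of vessels and glomeruli, were 1.58 ± 0.296% of Sham and 1.78 ± 0.102% of DOCA-salt barcodes (SD, n = 3 each), and these groups overlapped (exact permutation p = 0.4). There were 0.0828 ± 0.0815 fibroblasts for each mural cell in the Sham mice and 1.55 ± 0.186 in the DOCA-salt mice (SD, n = 3 each). The fold was 45.4 without Sham 1, which alone gave 20 of the 30 Sham cells, and 18.2 without Sham 2. With every cell thinned to 1000 UMIs and 3 of the 6 marker genes asked for, the fold was 23.0. No setting brought the groups into overlap.

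**Figure D1:**
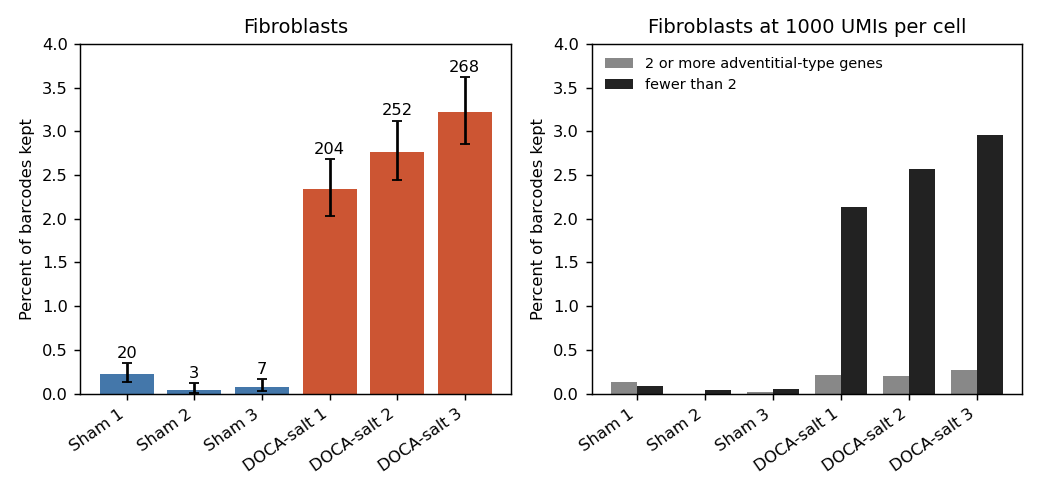
Left, fibroblasts as a percent of kept barcodes in each mouse, with exact 95% binomial intervals and the number of cells. Right, the same cells at 1000 UMIs each, split into those with at least 2 adventitial-type genes and those with fewer; Sham 2 had 0 cells of the first kind, and the 3 DOCA-salt mice lay between 0.198 and 0.264% for the first and between 2.14 and 2.96% for the second.

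Fibroblasts were then divided by their adventitial-type genes. Each cell was thinned to 1000 UMIs and scored for 10 adventitial-type genes: Pi16, Dpp4, Ly6a, Cd34, Sema3c, Ly6c1, Anxa3, Dpt, Cd55 and Cd248. Cells with at least 2 of them numbered 12, 0 and 2 in the Sham mice and 18, 18 and 22 in the DOCA-salt mice. They were 60, 0 and 28.6% of Sham fibroblasts and 8.82, 7.14 and 8.21% of DOCA-salt fibroblasts. Sham 1 and Sham 3 thus lay above all DOCA-salt mice, and Sham 2, with 3 fibroblasts, lay below them. As a share of kept barcodes these cells were at 0.0527 ± 0.0722% and 0.223 ± 0.0363% (SD, n = 3 each), 4.23-fold apart. Cells with fewer than 2 of the genes numbered 8, 3 and 5 in the Sham mice and 186, 234 and 246 in the DOCA-salt mice. Their share of kept barcodes was 0.0631 ± 0.0246% and 2.55 ± 0.410% (SD, n = 3 each), 40.5-fold apart. Both splits gave an exact permutation p = 0.1, and the groups did not overlap in either. Without thinning, cells with at least 3 of the genes were 90, 33.3 and 71.4% of Sham fibroblasts and 39.2, 50.8 and 41.8% of DOCA-salt fibroblasts, and their share of kept barcodes was 13.4-fold apart, against 63.6-fold for the other cells. The difference between the groups in the proportion of the 2 kinds was not tested, and the sums compared below hold both.

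Leiden clustering of the 754 cells, made without the rule genes, gave 6 clusters, which are described by their leading genes and were not tested. Cluster 1 (70 cells) was led by Sfrp4, a secreted Wnt binding protein, with Esm1, Clec3b, Meg3, Rbp4 and Pi16. It held 18 of 20, 1 of 3 and 5 of 7 Sham fibroblasts and 16, 12 and 18 DOCA-salt fibroblasts. Sfrp4 lay at 1976 CPM there and at no more than 36.2 CPM in any other cluster, and Pi16, a peptidase inhibitor, lay at 1701 CPM. Most of the Sham cells of this cluster came from Sham 1. A UMI of Pi16 was found in 13, 2 and 6 Sham fibroblasts and in 47, 62 and 66 DOCA-salt fibroblasts. The latter were 24.1% on average, against 0.566% of the proximal tubule cells of the DOCA-salt mice.

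Cluster 5 (171 cells) was led by Spp1 and the actin binding genes Pls3 and Tagln, with Shc4, Nkd2 and Bpgm. Spp1 lay at 17081 CPM in it against 434 CPM in cluster 1, and Tagln at 3648 CPM against 728 CPM. Cluster 3 (176 cells) was led by Lin7a, Gfpt2, Nfatc1, Ern1, Tgfb2 and Nebl and held Spp1 at 7419 CPM. Cluster 4 (214 cells), the most numerous, was led by Adgrb3, Grm7, Clca3a1, Ldb2, Gm4956 and Igfbp3. It carried the steroid converting enzyme gene Hsd11b1 at 979.9 CPM, and the chemokine gene Cxcl12 at 832 CPM against 1062 CPM in cluster 1, 13.2 CPM in cluster 3 and 47.7 CPM in cluster 5. Cluster 6 (76 cells) was led by the interferon-stimulated genes Isg15, Ifit3 and Ifi47, with Tnfsf15, Fry and Col12a1; Isg15 lay at 227 CPM in it and at 36.1 to 63.7 CPM elsewhere. Tnc lay at 749 CPM in cluster 3, 606 CPM in cluster 5 and 81.6 CPM in cluster 1, and Nkd2 at 416, 573 and 18.1 CPM.

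Cluster 2 (47 cells) went against the label of the cells. It was led by tubule genes, the water channel Aqp2, Hsd11b2, Fxyd4, the sodium transporter Slc12a1, Defb1 and Pkhd1. Its cells had a median of 17782 UMIs and carried Col1a1 at 1197 CPM, the lowest of the clusters. Without the cells that held over 0.1% of their UMIs from 6 distal tubule genes, 688 DOCA-salt and 27 Sham fibroblasts were left and the fold between the groups was 25.3. Scrublet, a doublet caller, scored the kept barcodes, and the highest scores were marked up to a set rate. This marked 632, 415, 603, 606, 664 and 554 barcodes, where its own threshold marked 145, 78, 137, 156, 1 and 155. Among those marked by rate were 6, 1 and 1 Sham fibroblasts and 18, 15 and 14 DOCA-salt fibroblasts. Without the barcodes marked by rate the fold was 30.7.

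**Figure D2:**
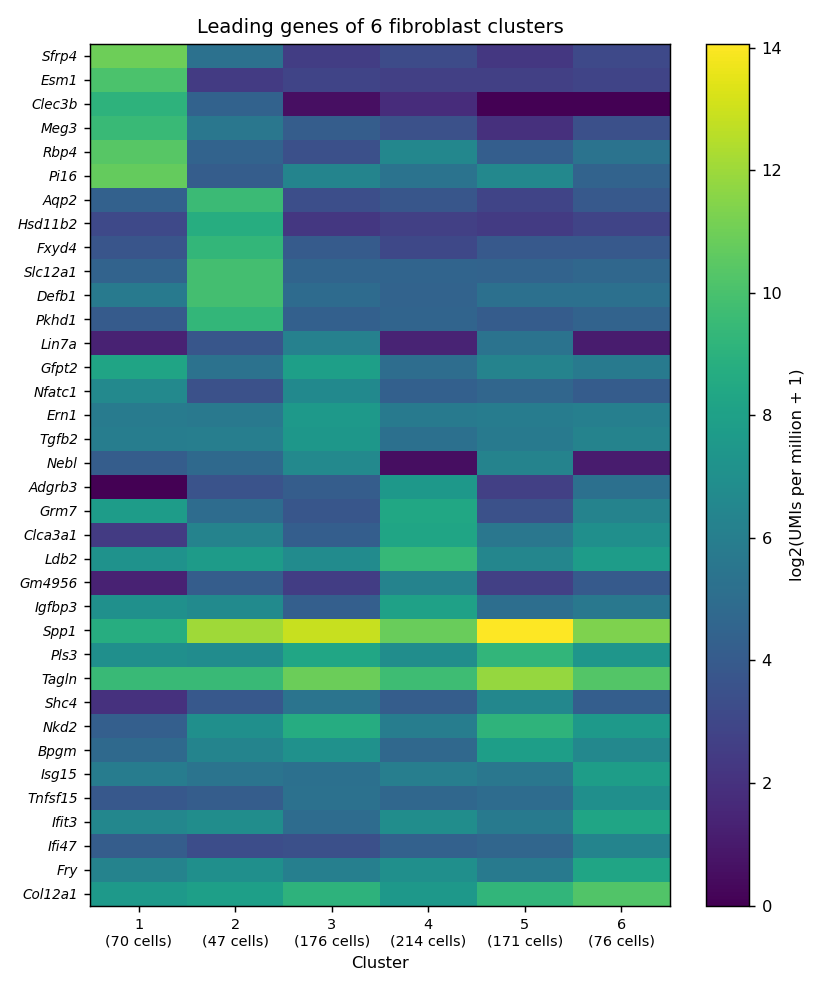
Level of the 6 leading genes of each fibroblast cluster (rows) in each of the 6 clusters (columns, with the number of cells), as color on the scale of log2(CPM + 1). Sfrp4 and Pi16 lay highest in cluster 1 (70 cells) and Spp1 in cluster 5 (171 cells).

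The 20 most abundant RNAs of DOCA-salt fibroblasts were ranked by their median over the mice. Mgp, which inhibits calcification of matrix, lay first at 24738, 26891 and 26348 CPM in the DOCA-salt mice and at 14649, 14117 and 17214 CPM in the Sham mice. Fibroblasts held 73.0, 62.5 and 72.2% of all Mgp UMIs of the 3 DOCA-salt kidneys. Malat1, Tmsb4x, Spp1, Fth1, Igfbp7, Tpt1, Sparc, Actb, Eef1a1, Bgn and Col3a1 followed in order of their median. Timp3, Col1a1, Col1a2, Fos, Prkg1, Ptma and Itm2b were also among the 20 highest after mitochondrial and ribosomal protein genes were set aside.

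Collagens I and III, which chose the cells, were not at a higher level per UMI in DOCA-salt fibroblasts. Col1a1 lay at 4118, 1671 and 3443 CPM in the Sham mice and 2827, 2152 and 2658 CPM in the DOCA-salt mice. Col3a1 lay at 5201, 1268 and 4394 CPM in the Sham mice and 3316, 2443 and 2956 CPM in the DOCA-salt mice. In both genes the DOCA-salt values fell inside the range of the Sham values. Dcn lay at 10210, 346 and 3541 CPM in the Sham mice and 1494.5, 2306 and 1597 CPM in the DOCA-salt mice. Lum lay at 962, 57.6 and 557 CPM and then 236, 180 and 274 CPM. For both, each DOCA-salt mouse lay below Sham 1 and Sham 3 and above Sham 2, which held 6 and 1 UMIs. Cluster 1 carried Dcn at 9139 CPM and Lum at 2124 CPM, against at most 2411 and 161 CPM in the other clusters. The rule asked for marker genes to be detected in the shallower Sham cells too, which bears on their levels per UMI. The comparison is therefore a description and was not tested. With 49.8, 50.6 and 51.8% of all UMIs of the fibronectin gene Fn1 in the DOCA-salt kidneys, fibroblasts held about as much of that matrix RNA as all other barcodes together, against 7.33, 4.10 and 3.30% in the Sham kidneys.

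**Figure D3:**
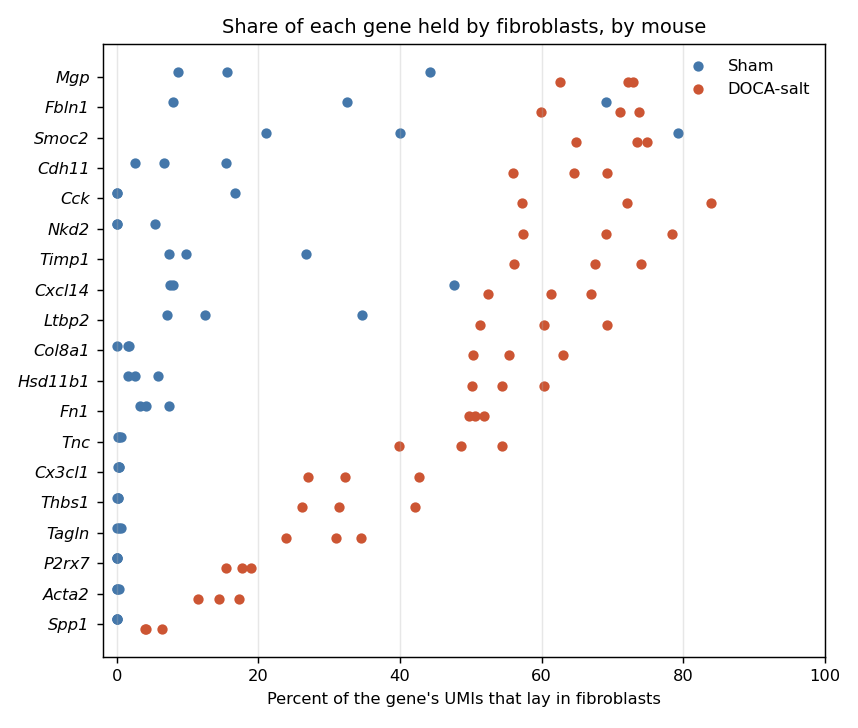
Percent of all UMIs of a gene, over every kept barcode of a mouse, that lay in fibroblasts. Each point is 1 mouse; in the DOCA-salt mice fibroblasts held 74.1, 56.2 and 67.6% of Timp1 and 18.97, 15.5 and 17.8% of P2rx7.

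Levels per gene were compared over mice with edgeR's quasi-likelihood test on the summed UMIs of each mouse with at least 5 fibroblasts, which left out Sham 2. Of 11645 genes, 779 (6.69%) passed, 443 (3.8%) of them up and 336 (2.89%) down in DOCA-salt, at a Benjamini-Hochberg adjusted p under 0.05. An unadjusted p under 0.05 was reached by 18.3% of genes, and 27.6% did not overlap between the 3 Sham and the 3 DOCA-salt mice. Of all 33683 genes outside the rule, tested or not, 5845 lay higher in each DOCA-salt mouse than in any Sham mouse. Another 459 lay lower in each. The part of the lower Sham depth in this pattern was not tested. The median log2 change of all 11645 genes tested was 0.27. By DESeq2, 244 of them were higher and 275 lower. All log2 changes below are DOCA-salt minus Sham with an SE, and all adjusted p are from this edgeR test unless another is named. Each SE was worked back from the test, as the absolute log2 change divided by the square root of its F statistic. The test shares its estimate of spread over genes, so neither SE nor adjusted p measures a gene's own spread between mice. Calb1, for one, had a log2 change of -4.46 ± 0.28 with the tested mice Sham 1 and Sham 3 at 655 and 65.6 CPM. The number of calls rested on Sham 1. Without it, 7 Sham cells stood against 724, and edgeR called 1 gene higher (Spp1) and 11 lower, which were Rbp4, Mfap4, Plac9, Eln, Cst3, Serpinf1 and the mitochondrial genes mt-Co2, mt-Atp6, mt-Cytb, mt-Nd2 and mt-Nd1; every other gene named below lost its call, and the log2 change of Cxcl12, Penk, Col6a2, Fmod, Timp2, Htra3, Tgfbi, Igfbp3, Gas1, C7, Hsd11b2 and Egr1 was then above 0, where the median of all genes was 5.86. Among the fibroblasts with at least 3 of the 10 adventitial-type genes (18, 1 and 5 Sham cells; fits on the full depth), 285 genes were higher and 235 lower, and among those with fewer than 3 (2 Sham cells in each mouse), 189 were higher and 37 lower. In the first the log2 change of Postn and C3 was above 0. In the second, where the median of all genes was 1.24, that of Fxyd2, Col6a1, Col6a2, Eln, Mfap4, Htra3, Ltbp4, Gas1, Il6, Nr3c2, Klf2, Klf4 and Nr4a1 was above 0. Where leaving out another mouse also ended a call, that mouse is given beside the gene; without Sham 1 or Sham 3 a single Sham sum is left, and its spread is taken to be that of the DOCA-salt mice. Sham 2, outside the test, lay inside the DOCA-salt range or above it for Col18a1, Emilin1, Tgfbr1, Smad7 and Hspa1b among the genes called higher. It lay inside that range or below it for Inmt, Col6a1, Col6a2, Mfap5, Cilp, Mmp23, Timp2, Htra3, Ltbp1, Igfbp6, Sfrp2, Ccl11, Cxcl1, C3 and Hsd11b2 among those called lower. Sham 3 did the same for Tgfb1 and Hspa1b and for Cxcl12, Col6a2, Fmod, Timp2, Htra3, Gas1, Hsd11b2 and Egr1. For further genes this is stated where they are described. Of the 20 most abundant genes, Spp1, Prkg1 (log2 change 2.05 ± 0.37, adjusted p = 2.63e-06) and Tmsb4x (log2 change 1.67 ± 0.40, adjusted p = 0.00105) were called higher and none was called lower.

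Spp1, Tnc, Cck, Nkd2, Aldh1a2 and Sorbs2 were among the 10 largest rises. Spp1 encodes osteopontin, a secreted phosphoprotein of injured tissue, and lies at chr5:104582165-104589235 of GRCm39. It was measured at 342, 57.6 and 328 CPM in the Sham mice and 8589, 4135 and 8961 CPM in the DOCA-salt mice (log2 change 4.50 ± 0.48, adjusted p = 3.44e-18). The groups did not overlap, and 54.2% of the Spp1 UMIs of Sham 1 came from 1 cell. Spp1 was high outside fibroblasts as well. Its median over the DOCA-salt mice was 6438 CPM in mural cells and 4334 CPM in proximal tubule cells, against 1278 and 614 CPM in the Sham mice.

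Tnc encodes tenascin-C, a matrix glycoprotein that appears in wounds, and lay at 7.12, 115 and 65.6 CPM in the Sham mice and 419, 341 and 521 CPM in the DOCA-salt mice (log2 change 4.63 ± 0.61, adjusted p = 7.08e-12). Cck, the gene of the peptide hormone cholecystokinin, lay at 0, 0 and 131 CPM in the Sham mice and 769, 604 and 797 CPM in the DOCA-salt mice (log2 change 4.94 ± 0.58, adjusted p = 4.56e-15). Nkd2, an inhibitor of Wnt signalling, lay at 0, 115 and 0 CPM in the Sham mice and 316, 287 and 248 CPM in the DOCA-salt mice. This is a pooled ratio of 26.4-fold, with a 95% counting interval of 7.31 to 218. Its 2 Sham UMIs lay in 1 cell of Sham 2. The edgeR test, which left out Sham 2, gave adjusted p = 3.02e-12. The pooled ratios and lowest folds given below also take in all 3 Sham mice, unlike the test. Their intervals cover counting error only, not the spread between mice or cells. All 3 genes were low or at 0 in each Sham mouse and high in each DOCA-salt mouse, and the groups did not overlap.

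Aldh1a2, which makes retinoic acid, had 0 UMIs in all Sham fibroblasts and lay at 158, 137 and 156 CPM in the DOCA-salt mice. Against a floor of 3 UMIs over the Sham group it was at least 9.33-fold higher (adjusted p = 5.30e-08). Sorbs2, an adaptor at actin fibres, lay at 7.12, 115 and 0 CPM in the Sham mice and 259, 274 and 294 CPM in the DOCA-salt mice (log2 change 5.61 ± 0.78, adjusted p = 1.22e-10). The kinesin gene Kif26b (log2 change 4.48 ± 0.61, adjusted p = 4.13e-11), the actin filament gene Afap1l2 (log2 change 4.44 ± 0.86, adjusted p = 1.68e-05) and Mmd (log2 change 4.93 ± 0.82, adjusted p = 1.98e-07) were also among the 10 largest rises. None of the 10 overlapped between groups, as the rule for naming them required. Sorbs2, Tnc, Kif26b and Mmd overlap an annotated gene on the other strand.

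**Figure D4:**
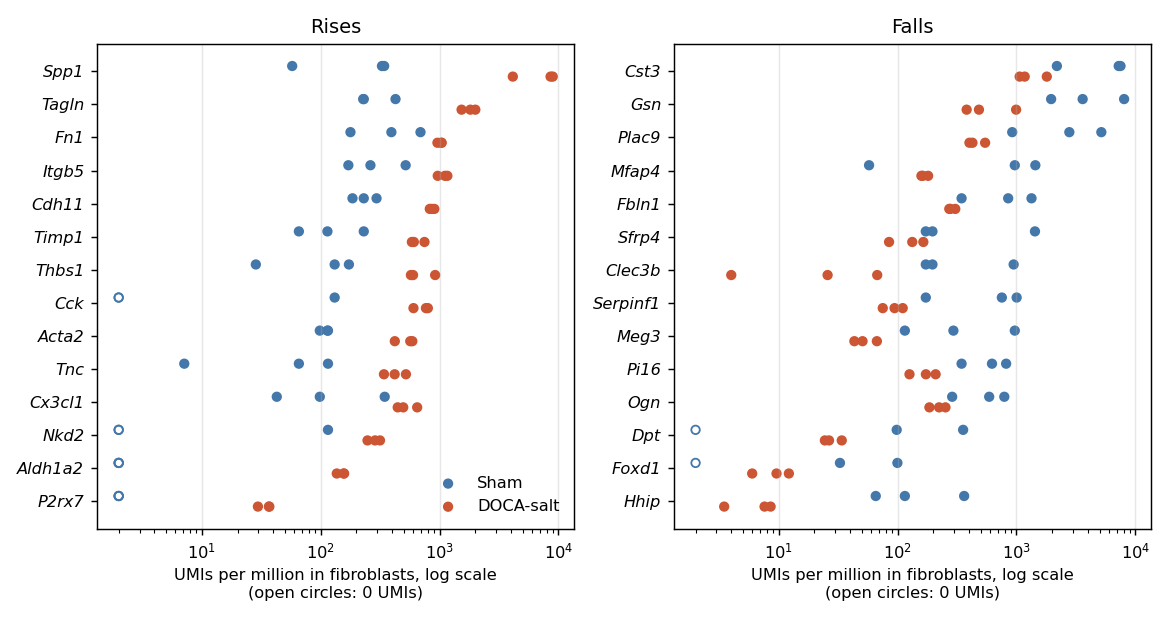
CPM of 28 genes in the summed fibroblasts of each mouse, on a log axis; genes on the left were called higher and genes on the right lower in DOCA-salt. Sham 2, with 3 cells, was left out of the test and lay below the DOCA-salt range for Mfap4, Dpt and Foxd1.

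The largest falls included Clec3b, Sfrp4 and Meg3, which led cluster 1. Clec3b encodes tetranectin, a secreted plasminogen binding protein, and lay at 948, 173 and 197 CPM in the Sham mice and 67.5, 3.99 and 25.8 CPM in the DOCA-salt mice (log2 change -4.49 ± 0.26, adjusted p = 4.30e-63). Gsn, gelsolin, an actin severing protein, lay at 8051, 1959 and 3607 CPM in the Sham mice and 994, 381 and 484 CPM in the DOCA-salt mice (log2 change -3.19 ± 0.32, adjusted p = 5.90e-20). Plac9 lay at 5180, 922 and 2787 CPM in the Sham mice and 545, 427 and 403 CPM in the DOCA-salt mice (log2 change -3.07 ± 0.30, adjusted p = 5.50e-21). In these 3 genes each Sham mouse was above each DOCA-salt mouse, as the rule for naming them required. The Clec3b values rest on 3 UMIs in 1 cell of Sham 2 and on 6 UMIs in Sham 3.

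Serpinf1, the gene of the secreted factor PEDF, lay at 1005, 173 and 754 CPM in the Sham mice and 111, 94.4 and 75.1 CPM in the DOCA-salt mice (log2 change -3.22 ± 0.26, adjusted p = 3.50e-33). Sfrp4 lay at 1432, 173 and 197 CPM in the Sham mice and 84.9, 165 and 133 CPM in the DOCA-salt mice (log2 change -2.90 ± 0.25, adjusted p = 3.62e-27). Hhip, which binds hedgehog ligands, lay at 363, 115 and 65.6 CPM in the Sham mice and 3.48, 8.56 and 7.61 CPM in the DOCA-salt mice (log2 change -5.32 ± 0.38, adjusted p = 1.92e-41). For Hhip and Sfrp4 Sham 1 was the highest mouse. Sham 2 and Sham 3 lay above the DOCA-salt mice, which the rule for naming the falls required. The Sham 2 values rest on 2 UMIs of Hhip, 3 UMIs of Sfrp4 and 3 UMIs of Serpinf1, each in 1 cell. The imprinted RNAs Meg3 (log2 change -3.76 ± 0.25, adjusted p = 1.15e-46) and Rian (log2 change -3.88 ± 0.41, adjusted p = 5.71e-19) fell as well. Calb1 (log2 change -4.46 ± 0.28, adjusted p = 4.78e-53) and Nfatc2 (log2 change -2.90 ± 0.35, adjusted p = 3.25e-14) completed the 10 largest falls, but 98.9% of the Calb1 UMIs and 69.0% of the Nfatc2 UMIs of Sham 1 came from a single cell. Calb1, calbindin, is a gene of the distal tubule.

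Of the adventitial-type genes 5 of 10 tested were lower, and none was higher by edgeR, by DESeq2 or at an unadjusted p under 0.05 (median log2 change -1.51, and 0 higher and 5 lower by DESeq2). Pi16 lay at 819, 346 and 623 CPM in the Sham mice and 173, 126 and 209 CPM in the DOCA-salt mice (log2 change -2.07 ± 0.27, adjusted p = 1.84e-12). Ly6a, the stem cell antigen Sca-1, lay at 848, 1671 and 426 CPM in the Sham mice and 184, 219.6 and 209 CPM in the DOCA-salt mice (log2 change -1.72 ± 0.27, adjusted p = 1.77e-08). Both were lower in each DOCA-salt mouse than in each Sham mouse. Dpt (log2 change -3.32 ± 0.32, adjusted p = 1.08e-21), Sema3c (log2 change -3.11 ± 0.43, adjusted p = 6.88e-11) and Cd55 (log2 change -2.88 ± 0.47, adjusted p = 1.08e-07) were also called, but Sham 2 held 0 UMIs of each, and Cd55 lost its call without Sham 3 (adjusted p = 0.101). These same genes defined the split above.

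In the list of kidney interstitial genes, 1 of 13 tested members were higher and 4 lower (median log2 change 0.21, or 0.00 with members at 0 in the tested Sham sums set to their bound, and 1 higher and 2 lower by DESeq2). Col15a1 was the higher member. Inmt, a methyltransferase, fell (log2 change -3.31 ± 0.45, adjusted p = 4.51e-11), as did Foxd1, Cxcl12 and Penk (log2 change -2.94 ± 0.48, adjusted p = 1.46e-07). Penk, an opioid precursor, was at 0 in Sham 2 and Sham 3, 70.0% of its Sham 1 UMIs were in 1 cell, and without Sham 3 its adjusted p was 0.088. Tcf21, a transcription factor of the renal stroma, lay at 299, 115 and 32.8 CPM in the Sham mice and 247, 258 and 272 CPM in the DOCA-salt mice (adjusted p = 0.811).

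Of the contractile genes, 5 of 9 tested members were higher and 1 lower (median log2 change 2.11, or 1.57 with members at 0 in the tested Sham sums set to their bound, and 4 higher and 1 lower by DESeq2). Acta2, smooth muscle actin, lay at 114, 115 and 98.4 CPM in the Sham mice and 590.1, 420.4 and 567 CPM in the DOCA-salt mice (log2 change 2.32 ± 0.41, adjusted p = 1.47e-06). Tagln, the actin binding protein transgelin, lay at 228, 230.5 and 426 CPM in the Sham mice and 1816, 1532 and 2000 CPM in the DOCA-salt mice (log2 change 2.75 ± 0.40, adjusted p = 1.02e-09). Cdh11, a cadherin of activated fibroblasts, lay at 185, 230.5 and 295 CPM in the Sham mice and 861, 828 and 904 CPM in the DOCA-salt mice (log2 change 2.11 ± 0.38, adjusted p = 2.59e-06). In these 3 genes no Sham mouse reached the lowest DOCA-salt mouse. The tropomyosin gene Tpm1 (log2 change 1.57 ± 0.36, adjusted p = 0.000493) was also higher. Des (log2 change 2.30 ± 0.69, adjusted p = 0.0183) was called too, but not without Sham 3 or without DOCA-salt 2 (adjusted p = 0.158 and 0.0723). The member that fell was Postn, periostin, whose log2 change was 1.96 among the fibroblasts with at least 3 adventitial-type genes. In all fibroblasts it lay at 321, 0 and 164 CPM in the Sham mice and 36.6, 48.2 and 47.0 CPM in the DOCA-salt mice (log2 change -2.61 ± 0.32, adjusted p = 1.04e-13). Postn was at 0 in Sham 2, and 93.3% of its UMIs in Sham 1 came from 1 cell. Myl9, a myosin light chain, was lower in every DOCA-salt mouse at 155, 219 and 182 CPM against 370.5, 230.5 and 295 CPM, but its log2 change of -0.84 ± 0.30 did not pass the test (adjusted p = 0.0687).

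Mural cells were chosen by at least 4 of the 8 genes Myh11, Acta2, Tagln, Rgs5, Notch3, Cspg4, Pdgfrb and Mylk, so their levels of these genes are a description. Acta2 had a median of 3369 CPM in mural cells of the DOCA-salt mice, and Tagln 4141 CPM. At 1000 UMIs a cell, 26.3% of DOCA-salt fibroblasts held a UMI of Acta2 against 67.8% of mural cells and 1.08% of proximal tubule cells, which do not make it. Of the mural cell list, in which the rule sets Myh11 to 0, 6 of 11 tested members were higher by edgeR and 3 by DESeq2, and none was lower by either or at an unadjusted p under 0.05. Pdgfrb, the receptor of PDGF-B, was at 128, 403 and 197 CPM and 387, 382 and 481 CPM (log2 change 1.61 ± 0.39, adjusted p = 0.00111), with Sham 2 inside the DOCA-salt range.

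**Figure D5:**
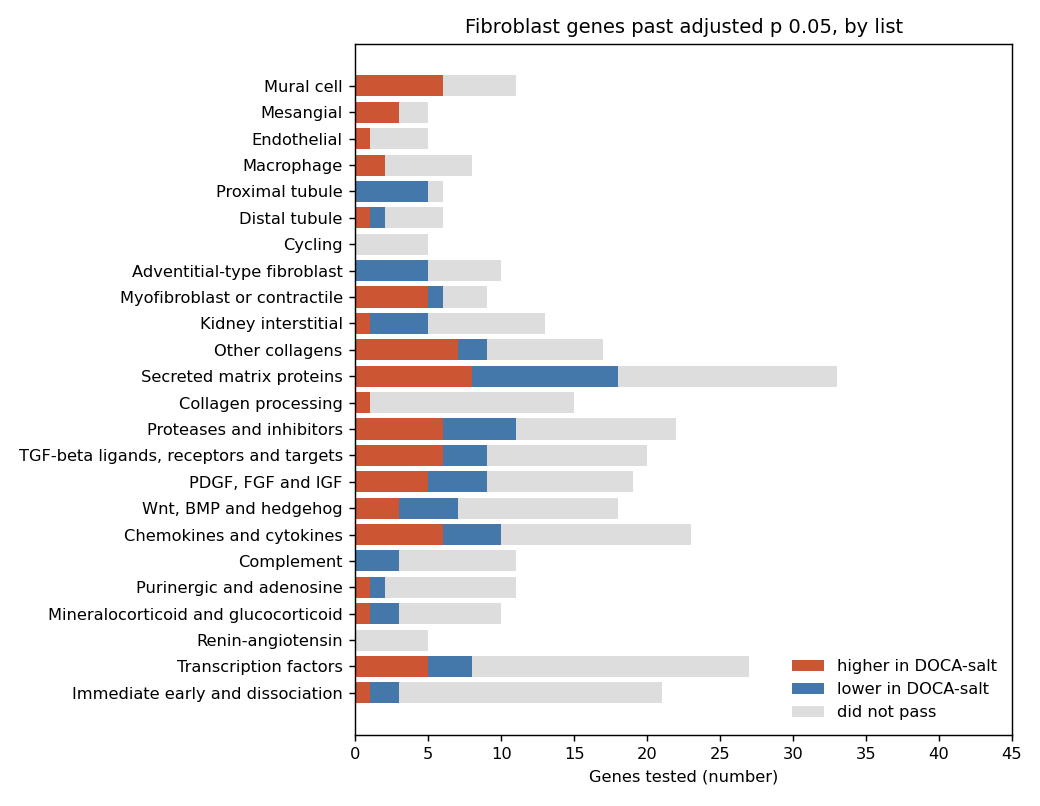
For each list of genes, the number of tested members that were higher, lower or did not pass the test in DOCA-salt fibroblasts; over all 11645 genes 3.8% were higher and 2.89% lower. The contractile list had 5 of 9 members higher, and the adventitial-type list had 5 of 10 lower.

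Among collagens other than I and III, 7 of 17 tested members were higher and 2 lower (median log2 change 0.63, and 7 higher and 1 lower by DESeq2). The basement membrane collagen genes Col4a1 (log2 change 1.61 ± 0.35, adjusted p = 0.000271) and Col4a2 (log2 change 2.44 ± 0.41, adjusted p = 4.56e-07) were higher, with Sham 2 above the DOCA-salt mice in both. Col8a1, a network-forming collagen, lay at 164, 57.6 and 459 CPM in the Sham mice and 766, 797 and 917 CPM in the DOCA-salt mice (log2 change 1.88 ± 0.38, adjusted p = 3.57e-05). Col15a1, which links basement membranes to the interstitium, lay at 207, 173 and 295 CPM in the Sham mice and 574, 642 and 594 CPM in the DOCA-salt mice (log2 change 1.48 ± 0.36, adjusted p = 0.00147). In both genes each DOCA-salt mouse was above each Sham mouse. Col12a1 (log2 change 2.33 ± 0.41, adjusted p = 1.37e-06) and Col18a1 (log2 change 2.48 ± 0.46, adjusted p = 6.78e-06) rose too, though 72.2% and 66.7% of their Sham 1 UMIs came from 1 cell. Col5a2 (log2 change 1.34 ± 0.37, adjusted p = 0.00776) lost its call without Sham 3 or without DOCA-salt 1 (adjusted p = 0.0811 and 0.0733). Col6a1 (-0.96) and Col6a2 (-0.99), the chains of beaded filaments, were the 2 lower members on the log2 scale, with adjusted p = 0.0144 and 0.0149. Col6a1 reached adjusted p = 0.0857 without DOCA-salt 1 and 0.0714 without DOCA-salt 3, and Col6a2 0.0657 and 0.0708.

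Of the secreted matrix proteins, 8 of 33 tested members were higher and 10 lower (median log2 change -0.14, and 9 higher and 8 lower by DESeq2). Fn1 lay at 178, 691 and 393 CPM in the Sham mice and 1031, 960.1 and 1043 CPM in the DOCA-salt mice (log2 change 2.21 ± 0.38, adjusted p = 9.33e-07). Thbs1, thrombospondin-1, which can activate latent TGF-beta, lay at 28.5, 173 and 131 CPM in the Sham mice and 574, 598 and 918 CPM in the DOCA-salt mice (log2 change 3.91 ± 0.50, adjusted p = 1.74e-12). As in Spp1 and Tnc, each DOCA-salt mouse was above each Sham mouse in both. Thbs2 (log2 change 2.46 ± 0.51, adjusted p = 7.94e-05), the laminin chain gene Lamb1 (log2 change 3.38 ± 0.73, adjusted p = 0.000196) and the elastic fibre gene Fbln5 (log2 change 1.64 ± 0.36, adjusted p = 0.000231) were higher as well, and Sham 2 exceeded the DOCA-salt mice in Lamb1 and Fbln5. Emilin1 (log2 change 1.28 ± 0.37, adjusted p = 0.0122) lost its call without DOCA-salt 3 (adjusted p = 0.0867).

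Fbln1, a fibulin of elastic fibres, lay at 1340, 346 and 853 CPM in the Sham mice and 272, 278 and 306 CPM in the DOCA-salt mice (log2 change -1.94 ± 0.27, adjusted p = 1.06e-10). Ogn, the proteoglycan osteoglycin, lay at 791, 288 and 590.2 CPM in the Sham mice and 185, 253 and 224 CPM in the DOCA-salt mice (log2 change -1.63 ± 0.27, adjusted p = 2.11e-07). Mfap4 lay at 969, 57.6 and 1443 CPM in the Sham mice and 159, 181 and 163 CPM in the DOCA-salt mice (log2 change -2.65 ± 0.26, adjusted p = 7.17e-21). Fbln1 and Ogn did not overlap between the groups, while Sham 2 was below the DOCA-salt mice in Mfap4. Eln, elastin, was lower at a log2 change of -1.62 ± 0.28 (adjusted p = 1.20e-06), but Sham 2 held 0 UMIs and without Sham 3 adjusted p was 0.469. Fmod (log2 change -1.65 ± 0.41, adjusted p = 0.00172), Vcan (-2.09 ± 0.41, adjusted p = 1.79e-05, and 0.112 without Sham 3) and Aspn (-2.01 ± 0.49, adjusted p = 0.00162, and 0.199 without Sham 3) were also lower. Postn, Mfap5 and Cilp were the other lower members. Mfap5 reached adjusted p = 0.218 without Sham 3 and 0.101, 0.0604 and 0.124 without each DOCA-salt mouse, and Cilp 0.549 without Sham 3.

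Of 15 collagen processing genes, edgeR called 1 higher and none lower (median log2 change -0.34, and 0 higher and 0 lower by DESeq2). At an unadjusted p under 0.05 there were 2 higher and 4 lower, as were 1400 and 726 of all 11645 genes. The called member was the crosslinking oxidase Loxl2, at 2, 1 and 0 UMIs in the Sham mice and 61.4, 103 and 64.2 CPM in the DOCA-salt mice, a pooled ratio of 4.95-fold, with a 95% counting interval of 1.69 to 24.0 (adjusted p = 0.00869). It lost its call without Sham 3 or DOCA-salt 2 (adjusted p = 0.196 and 0.0609). The chaperone of collagen, Serpinh1, lay at 1489, 1383 and 853 CPM in the Sham mice and 977, 675 and 944 CPM in the DOCA-salt mice (log2 change -0.44 ± 0.29, adjusted p = 0.449). The lysyl oxidase gene Lox lay at 35.6, 0 and 131 CPM in the Sham mice and 128, 119.8 and 122 CPM in the DOCA-salt mice (log2 change 1.25 ± 0.49, adjusted p = 0.11).

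Proteases and their inhibitors divided, with 6 of 22 tested members higher and 5 lower (median log2 change 0.69, and 5 higher and 3 lower by DESeq2). Timp1, an inhibitor of matrix metalloproteinases, lay at 114, 230.5 and 65.6 CPM in the Sham mice and 747, 608 and 585 CPM in the DOCA-salt mice (log2 change 2.71 ± 0.42, adjusted p = 1.50e-08). Fibroblasts held 74.1, 56.2 and 67.6% of its UMIs in the DOCA-salt kidneys. Serpine2, a thrombin inhibitor, lay at 85.5, 1152 and 164 CPM in the Sham mice and 873, 556 and 864 CPM in the DOCA-salt mice (log2 change 2.97 ± 0.43, adjusted p = 1.02e-09), with Sham 2 the highest of the 6 mice. Mmp2, gelatinase A, lay at 71.2, 57.6 and 131 CPM in the Sham mice and 206, 249 and 226 CPM in the DOCA-salt mice (log2 change 1.52 ± 0.43, adjusted p = 0.0101). Mmp14, which activates it, was called (log2 change 1.92 ± 0.52, adjusted p = 0.00571), but not without Sham 3 (adjusted p = 0.089). Mmp11 was called too, at 0, 57.6 and 0 CPM in the Sham mice and 31.8, 38.8 and 33.4 CPM in the DOCA-salt mice, with its 1 Sham UMI in Sham 2, above every DOCA-salt mouse; adjusted p was 0.0175, 0.0661 without Sham 3, 0.052 without DOCA-salt 2 and 0.0517 without DOCA-salt 3. On the other side, Cst3, the protease inhibitor cystatin C, lay at 7253, 2190 and 7509 CPM in the Sham mice and 1065, 1801 and 1174 CPM in the DOCA-salt mice (log2 change -2.33 ± 0.33, adjusted p = 5.72e-10), with all Sham mice above all DOCA-salt mice. Mmp23 (log2 change -2.02 ± 0.29, adjusted p = 1.25e-09), Serpinf1, Htra3 and Timp2 were the other members that fell, and Timp2 (adjusted p = 0.044) lost its call without any 1 of the DOCA-salt mice (adjusted p = 0.184, 0.0904 and 0.152).

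In the TGF-beta list, 6 of 20 tested members were higher and 3 lower (median log2 change 0.55, and 3 higher and 2 lower by DESeq2). Of the ligands, Tgfb1 lay at 35.6, 230.5 and 164 CPM in the Sham mice and 173, 157 and 152 CPM in the DOCA-salt mice (log2 change 1.47 ± 0.47, adjusted p = 0.032), and its call was lost without DOCA-salt 1 or 3 (adjusted p = 0.107 and 0.0742). The receptor gene Tgfbr1 lay at 35.6, 230.5 and 32.8 CPM in the Sham mice and 142, 151 and 174 CPM in the DOCA-salt mice (log2 change 2.22 ± 0.54, adjusted p = 0.0014), with Sham 2 above the DOCA-salt mice, and Tgfbr2 lay at 114, 519 and 328 CPM in the Sham mice and 286, 225 and 279 CPM in the DOCA-salt mice (adjusted p = 0.228). Itgb5, an integrin chain that binds latent TGF-beta, lay at 171, 519 and 262 CPM in the Sham mice and 1111, 966 and 1164 CPM in the DOCA-salt mice (log2 change 2.56 ± 0.40, adjusted p = 1.38e-08) with no overlap of the groups. Of the latent TGF-beta binding proteins, Ltbp2 was higher (log2 change 2.17 ± 0.44, adjusted p = 5.99e-05) while Ltbp4 (log2 change -1.22 ± 0.28, adjusted p = 0.000538) and Ltbp1 (log2 change -2.11 ± 0.42, adjusted p = 3.41e-05) were lower.

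Targets of TGF-beta did not share 1 direction. Ccn2, connective tissue growth factor, lay at 242, 1095 and 361 CPM in the Sham mice and 667, 609 and 867 CPM in the DOCA-salt mice (log2 change 1.47 ± 0.36, adjusted p = 0.00134), with Sham 2 highest, and lost its call without DOCA-salt 3 (adjusted p = 0.0525). Smad7, an inhibitor in the pathway, was higher (log2 change 1.32 ± 0.41, adjusted p = 0.0267), but not without Sham 3, DOCA-salt 1 or DOCA-salt 3 (adjusted p = 0.148, 0.103 and 0.144). Tgfbi, a secreted adhesion protein, was lower (log2 change -2.44 ± 0.29, adjusted p = 6.37e-15), though Sham 3 was below the DOCA-salt mice, at 492, 461 and 32.8 CPM over the Sham mice and 59.6, 79.6 and 56.9 CPM over the DOCA-salt mice. Ccn1 lay at 356, 346 and 426 CPM in the Sham mice and 347, 305 and 397 CPM in the DOCA-salt mice (adjusted p = 0.986).

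Of the PDGF, FGF and IGF genes, 5 of 19 tested members were higher and 4 lower (median log2 change 0.30, and 4 higher and 2 lower by DESeq2). Pdgfa, a ligand of the receptor that chose the cells, had 0, 1 and 2 UMIs in the Sham mice and lay at 127, 133 and 166 CPM in the DOCA-salt mice, a pooled ratio of 8.96-fold, with a 95% counting interval of 3.06 to 43.5 (adjusted p = 2.82e-05). Gas6, a ligand of TAM receptors, was higher (log2 change 1.29 ± 0.35, adjusted p = 0.00717), though not without Sham 3 or DOCA-salt 3 (adjusted p = 0.0746 and 0.0619). Igfbp2, with 0 Sham UMIs, was at 85.7, 33.1 and 74.1 CPM in the DOCA-salt mice and at least 3.82-fold higher (adjusted p = 0.000493, and 0.226 without Sham 3). Igfbp6, which binds IGF-II, fell (log2 change -2.67 ± 0.26, adjusted p = 2.37e-22), and so did the epithelial growth factor gene Fgf7 (log2 change -2.58 ± 0.69, adjusted p = 0.00547), the hedgehog co-receptor Gas1 (log2 change -1.54 ± 0.32, adjusted p = 7.82e-05) and Igfbp3 (log2 change -2.01 ± 0.28, adjusted p = 2.21e-10). Igfbp3 lay at 527, 3515 and 0 CPM in the Sham mice and 60.5, 112 and 103 CPM in the DOCA-salt mice, so its 3 Sham mice spanned both sides of the DOCA-salt range.

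In the Wnt, BMP and hedgehog list, 3 of 18 tested members were higher and 4 lower (median log2 change -0.16, or -0.40 with members at 0 in the tested Sham sums set to their bound, and 2 higher and 4 lower by DESeq2). The Wnt receptor gene Fzd1 lay at 121, 346 and 131 CPM in the Sham mice and 497, 365 and 523 CPM in the DOCA-salt mice (log2 change 1.97 ± 0.40, adjusted p = 4.42e-05). The ligand gene Wnt4 had 1, 0 and 0 UMIs in the Sham mice and lay at 104, 59.3 and 70.5 CPM in the DOCA-salt mice, a pooled ratio of 14.1-fold, with a 95% counting interval of 2.51 to 556 (adjusted p = 0.0016, and 0.127 without Sham 3). The Wnt inhibitor Dkk2 was higher (log2 change 3.83 ± 0.71, adjusted p = 4.90e-06), with Sham 2 above the DOCA-salt mice. The secreted Wnt binding proteins Sfrp2 (log2 change -4.28 ± 0.50, adjusted p = 8.53e-15) and Sfrp4, the hedgehog inhibitor Hhip and the BMP antagonist Chrdl1 (log2 change -3.47 ± 0.88, adjusted p = 0.00259) fell. Gli1, a target of hedgehog signalling, lay at 21.4, 0 and 32.8 CPM in the Sham mice and 5.22, 8.84 and 6.62 CPM in the DOCA-salt mice (adjusted p = 0.347).

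Chemokine and cytokine genes went both ways, with 6 of 23 tested members higher and 4 lower (median log2 change 0.29, or 0.08 with members at 0 in the tested Sham sums set to their bound, and 3 higher and 2 lower by DESeq2). Cx3cl1, fractalkine, the ligand of a receptor on monocytes and macrophages, lay at 42.8, 346 and 98.4 CPM in the Sham mice and 445, 495 and 648 CPM in the DOCA-salt mice (log2 change 3.37 ± 0.48, adjusted p = 5.32e-10). Cxcl14 lay at 28.5, 288 and 328 CPM in the Sham mice and 449, 474 and 477 CPM in the DOCA-salt mice (log2 change 2.44 ± 0.44, adjusted p = 2.51e-06). Osmr, the oncostatin M receptor, lay at 57.0, 115 and 98.4 CPM in the Sham mice and 223, 266 and 307 CPM in the DOCA-salt mice (log2 change 2.09 ± 0.45, adjusted p = 0.00021). In all 3 genes each DOCA-salt mouse exceeded each Sham mouse. Il34, a ligand of the macrophage receptor CSF1R, lay at 0, 173 and 0 CPM in the Sham mice and 134, 121 and 124 CPM in the DOCA-salt mice (adjusted p = 5.19e-07). Its 3 Sham UMIs were all in Sham 2, which was above every DOCA-salt mouse. Ccl2, which draws monocytes, had 0 Sham UMIs and lay at 21.8, 29.4 and 109.8 CPM, at least 3.45-fold higher (adjusted p = 0.00144, but 0.509 without Sham 3 and 0.133 without DOCA-salt 3). Its UMIs lay in 11, 21 and 15 DOCA-salt fibroblasts, and 1 cell held 58.3% of them in DOCA-salt 2 and 45.5% in DOCA-salt 3. Cxcl9, a target of interferon-gamma, had 0 Sham UMIs too and lay at 35.3, 52.2 and 17.9 CPM, at least 2.26-fold higher (adjusted p = 0.0161, but 0.346 without Sham 3 and 0.102 without DOCA-salt 2). For Cxcl9, 1 cell held 90.1% of the UMIs of DOCA-salt 1 and 1 cell 76.5% of those of DOCA-salt 2.

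Of the lower chemokine genes, Cxcl12, which retains CXCR4-bearing cells, lay at 1026, 1383 and 328 CPM in the Sham mice and 243, 385 and 359 CPM in the DOCA-salt mice (log2 change -1.19 ± 0.27, adjusted p = 0.000551); its call was lost without DOCA-salt 1 (adjusted p = 0.0625), and 55.6% of its Sham 1 UMIs came from 1 cell. Il6 lay at 114, 57.6 and 262 CPM in the Sham mice and 36.1, 46.8 and 58.9 CPM in the DOCA-salt mice (log2 change -1.54 ± 0.40, adjusted p = 0.00342), and its adjusted p was 0.22 without Sham 3. Ccl11 (log2 change -2.33 ± 0.56, adjusted p = 0.00114) and Cxcl1 (log2 change -1.58 ± 0.52, adjusted p = 0.0397) were lower too; without Sham 3 their adjusted p was 0.17 and 0.0655, and that of Cxcl1 was 0.0535, 0.0687 and 0.0883 without each DOCA-salt mouse. Beside these values, macrophages were 1.504 ± 0.159% of Sham and 5.84 ± 1.09% of DOCA-salt barcodes (SD, n = 3 each), and the macrophage gene Lyz2 was among the genes called higher in fibroblasts, at 0, 0 and 0 CPM and 37.0, 48.5 and 40.7 CPM (adjusted p = 0.00659, and 0.0543 without Sham 3).

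Of the complement genes 3 of 11 were lower and none was higher by edgeR, by DESeq2 or at an unadjusted p under 0.05 (median log2 change -0.28, and 0 higher and 1 lower by DESeq2). C7, a part of the membrane attack complex, lay at 477, 0 and 32.8 CPM in the Sham mice and 63.1, 66.5 and 99.3 CPM in the DOCA-salt mice (log2 change -2.18 ± 0.29, adjusted p = 8.62e-12), and Sham 1 alone was above the DOCA-salt mice. Cd55 and C3 were the others, and C3 (adjusted p = 0.0473) had adjusted p = 0.359 without Sham 3.

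The study was about ATP and its receptors, and 11 of the purinergic and adenosine genes could be tested, with 1 higher and 1 lower by edgeR and 0 higher and 1 lower by DESeq2. P2rx7, the ATP-gated channel of the inflammasome pathway (chr5:122781942-122830400, GRCm39), had 0 UMIs in all 30 Sham fibroblasts. It held 85, 104 and 111 UMIs in the DOCA-salt mice, or 37.0, 29.7 and 36.7 CPM. Against the floor of 3 UMIs it was at least 2.13-fold higher. Its adjusted p was 0.0187, and it was 0.0774 without Sham 3, 0.0584 without DOCA-salt 1, 0.066 without DOCA-salt 3 and 0.114 with DESeq2. The call thus rested on each of these mice, and 0 of 188205 Sham UMIs is compatible with up to 15.9 CPM.

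P2rx7 was found in a larger share of DOCA-salt fibroblasts than of proximal tubule cells. At 1000 UMIs a cell, 3.40% of fibroblasts, 6.12% of macrophages, 1.00% of mural cells and 0.0406% of proximal tubule cells held a UMI. Median depths in the DOCA-salt mice were 10358.5 to 12935 UMIs for fibroblasts and 9724.5 to 12976 UMIs for proximal tubule cells. Fibroblasts held 18.97, 15.5 and 17.8% of the P2rx7 UMIs of the DOCA-salt kidneys. Among the fibroblast clusters, P2rx7 was at 3.02, 19.2, 41.4, 16.03, 59.4 and 37.6 CPM in clusters 1 to 6.

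The neighbouring channel gene P2rx4 lay at 7.12, 57.6 and 65.6 CPM in the Sham mice and 64.8, 74.7 and 61.9 CPM in the DOCA-salt mice (log2 change 1.98 ± 0.71, adjusted p = 0.0683). The adenosine receptor gene Adora2a had 0 Sham UMIs and lay at 18.7, 11.98 and 22.2 CPM in the DOCA-salt mice, which was not past the threshold (adjusted p = 0.146). Panx1, the channel that releases ATP, lay at 21.4, 57.6 and 98.4 CPM in the Sham mice and 17.8, 12.3 and 16.2 CPM in the DOCA-salt mice (log2 change -1.17 ± 0.72, adjusted p = 0.398). Entpd2, which degrades ATP at the cell surface, was the lower member at 178, 0 and 32.8 CPM in the Sham mice and 32.2, 18.3 and 28.8 CPM in the DOCA-salt mice (log2 change -2.43 ± 0.41, adjusted p = 3.55e-07), and cluster 1 carried it at 243 CPM against at most 14.4 CPM in the others. Nt5e, which makes adenosine from AMP, had 0, 1 and 0 UMIs in the Sham mice and lay at 5.66, 7.42 and 8.60 CPM in the DOCA-salt mice (adjusted p = 0.445).

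Of the receptors, enzymes and target genes of mineralocorticoids and glucocorticoids, 1 of 10 tested members was higher and 2 were lower (median log2 change 0.05, and 1 higher and 1 lower by DESeq2). Nr3c2, the mineralocorticoid receptor on which DOCA acts, lay at 192, 173 and 197 CPM in the Sham mice and 85.3, 103 and 77.7 CPM in the DOCA-salt mice (log2 change -1.05 ± 0.35, adjusted p = 0.0415). All DOCA-salt mice were below all Sham mice, but the log2 change was 1.35 among the fibroblasts with fewer than 3 adventitial-type genes, the call was lost without Sham 3, DOCA-salt 1 or DOCA-salt 3 (adjusted p = 0.13, 0.089 and 0.0892), and 66.7% of its UMIs in Sham 1 came from 1 cell. Hsd11b1, which regenerates active glucocorticoid, lay at 135, 1095 and 197 CPM in the Sham mice and 278, 572 and 388 CPM in the DOCA-salt mice (log2 change 1.55 ± 0.38, adjusted p = 0.00173, and adjusted p = 0.119 without Sham 3). Sham 2 was highest, and fibroblasts held 50.1, 54.5 and 60.3% of Hsd11b1 UMIs in the DOCA-salt kidneys. Hsd11b2 was lower (log2 change -2.22 ± 0.34, adjusted p = 8.39e-09), but 97.5% of its Sham 1 UMIs were in 1 cell and it led cluster 2. The glucocorticoid receptor gene Nr3c1 lay at 121, 346 and 328 CPM in the Sham mice and 176, 216 and 198 CPM in the DOCA-salt mice (adjusted p = 0.706). In the renin-angiotensin list none of 5 tested members was called by edgeR, by DESeq2 or at an unadjusted p under 0.05, and the angiotensin receptor gene Agtr1a lay at 57.0, 230.5 and 0 CPM in the Sham mice and 73.6, 96.1 and 92.0 CPM in the DOCA-salt mice (adjusted p = 0.296).

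Of 27 transcription factor genes tested, 5 were higher and 3 lower (median log2 change 0.00, and 4 higher and 2 lower by DESeq2). Runx1, a regulator of blood and of mesenchymal cells, lay at 35.6, 403 and 164 CPM in the Sham mice and 378, 323 and 502 CPM in the DOCA-salt mice (log2 change 2.78 ± 0.47, adjusted p = 3.29e-07). Runx2, the regulator of bone formation (log2 change 2.67 ± 0.60, adjusted p = 0.000427), Sox4 (log2 change 3.34 ± 0.58, adjusted p = 9.80e-07) and Tcf4 (log2 change 1.54 ± 0.37, adjusted p = 0.00102) were higher as well. In these 4 genes Sham 2 lay inside or above the DOCA-salt range. Twist1 (log2 change 3.21 ± 0.99, adjusted p = 0.0232) lost its call without Sham 3, DOCA-salt 1 or DOCA-salt 3 (adjusted p = 0.117, 0.0667 and 0.0882). Foxd1, the marker of the stromal progenitors of the kidney, lay at 99.7, 0 and 32.8 CPM in the Sham mice and 12.2, 5.99 and 9.59 CPM in the DOCA-salt mice (log2 change -3.18 ± 0.57, adjusted p = 2.21e-06), and cluster 1 carried it at 107 CPM against at most 4.53 CPM elsewhere. Klf4 was lower (log2 change -1.19 ± 0.28, adjusted p = 0.000951), and Klf2 (log2 change -0.94 ± 0.29, adjusted p = 0.0243) was lower with adjusted p = 0.614 without Sham 3, 0.072 without DOCA-salt 2 and 0.0638 without DOCA-salt 3.

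Of the immediate early response genes, which tissue dissociation can induce, 1 of 21 members was higher and 2 were lower, and 7 were lower at an unadjusted p under 0.05, as were 726 of all 11645 genes (median log2 change -0.30, and 0 higher and 0 lower by DESeq2). Fos lay at 5337, 1383 and 2426 CPM in the Sham mice and 2962, 2363 and 2394 CPM in the DOCA-salt mice (adjusted p = 0.379). Jun lay at 3164, 2017 and 1967 CPM in the Sham mice and 2284, 1981 and 1787 CPM in the DOCA-salt mice (adjusted p = 0.683). The heat shock gene Hspa1b was higher (log2 change 1.61 ± 0.37, adjusted p = 0.000504), but not without Sham 3 or DOCA-salt 1 (adjusted p = 0.303 and 0.219). Nr4a1 was lower (log2 change -1.40 ± 0.35, adjusted p = 0.00224; adjusted p = 0.138 without Sham 3), as was Egr1 (log2 change -0.92 ± 0.30, adjusted p = 0.0366), whose call was lost without each DOCA-salt mouse (adjusted p = 0.178, 0.121 and 0.162).

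Whether a gene changed differently in fibroblasts and in mural cells was tested in 1 edgeR model with the mouse as a block. Of 12670 genes 354 (2.79%) passed, and 191 (1.51%) had a higher change in fibroblasts than in mural cells and 163 (1.29%) a lower one. With library sizes alone in place of TMM the split was 143 and 230. These calls rested on Sham 1 as well. Without it, 15 of the 353 that could be tested again were kept, those of Prkg1, Spp1 and Cst3 among the 10 named here, and the median difference of all genes was 4.22 on the log2 scale; without Sham 3, 172 of 354 were kept, all 10 among them. Acta2 and Tagln, counted among these 10, also helped to choose the mural cells, so their differences are a description and not a test. The change in fibroblasts minus that in mural cells was 2.87 ± 0.36 for Acta2 and 3.12 ± 0.35 for Tagln. Mural medians went from 4618 to 3369 CPM for Acta2 and from 4456 to 4141 CPM for Tagln, levels that the rule for mural cells bears on. Among genes outside that rule, the change was higher in fibroblasts than in mural cells for Prkg1, a cGMP-dependent kinase (2.62 ± 0.26, adjusted p = 1.09e-05). It was also higher for Sorbs2 (5.68 ± 0.69, adjusted p = 8.63e-05), for Spp1 (2.27 ± 0.30, adjusted p = 0.000175) and for Thbs1 (2.94 ± 0.46, adjusted p = 0.000994).

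Among the falls, the difference was -3.16 ± 0.36, adjusted p = 4.24e-05 for Gsn, -4.52 ± 0.40, adjusted p = 1.03e-05 for Serpinf1, -2.36 ± 0.31, adjusted p = 0.000195 for Ly6a and -1.83 ± 0.23, adjusted p = 0.00011 for Cst3. For Fn1 it was -0.04 ± 0.35, adjusted p = 0.986, for Cdh11 0.03 ± 0.46, adjusted p = 0.997 and for Ccn2 0.02 ± 0.31, adjusted p = 0.998, and for these genes a difference between the classes was not shown. Mural sums of the DOCA-salt mice also held genes that fibroblasts carry: the mural median of Mgp was 407 CPM in the Sham mice and 5063 CPM in the DOCA-salt mice, and the part of such RNA in the tested differences was not tested.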

How the data were processed

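Kidneys of 3 Sham and 3 DOCA-salt mice were measured by single-cell RNA sequencing. The authors aligned reads to GRCm39 with Cell Ranger 9.0.0 (the file headers name another release), and the deposited matrices hold raw UMI counts per gene and barcode; Seurat 4.0.0 and R 4.0.3 stand in their notes. No per-cell annotation was used here. UMIs were summed per mouse over its fibroblasts. edgeR 4.0.16 in R 4.3.3 tested the counts (filterByExpr, TMM, quasi-likelihood F test, Benjamini-Hochberg over all genes tested, threshold 0.05); DESeq2 1.42.0 was an alternative. Shares were compared by exact two-sided permutation (scipy 1.17.1), with exact binomial intervals. Clusters and Scrublet were run in scanpy 1.11.5, at a doublet rate of 0.8% per 1000 barcodes. Genes were named as the 10 largest rises and 10 largest falls past the threshold (groups of the 6 mice apart, 50 CPM or more on average), the 20 most abundant, the 15 highest ratios to other cells, the 6 leading genes of each cluster, and the members of lists; some genes that these rules name are not reported here. On simulated data of the fibroblast sums (11655 genes, 200 changed) the test recovered 37% of 4-fold and 6% of 2-fold changes, with 3 false of 46 calls. The simulated counts had the same spread for every gene and no single cells that held most of a gene's UMIs. Their rate of false calls therefore cannot be carried over to the measured sums. Members and lists were chosen with earlier results of these data known. Gene positions are from GENCODE for GRCm39. The alternatives changed the cell rule, scaling, filters, tool and the mice included.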

Additional observations from a re-analysis of the deposited data

How the results depend on the processing

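The fold of the fibroblast share lay between 18.2 and 45.4 when 1 mouse was left out and kept its direction in all settings tried. The counts of calls moved more. Of genes higher in DOCA-salt fibroblasts there were 1 to 341 with 1 mouse left out, 244 with DESeq2, 224 with at most 20% mitochondrial UMIs (which left 1 Sham mouse), 210 with at least 10 fibroblasts per mouse (likewise) and 191 with the DOCA-salt sums thinned to the Sham depth (1910 genes tested). Of genes lower there were 11 to 354 with 1 mouse left out and 176 with thinned sums. In the difference from mural cells, 11 to 255 genes were higher and 6 to 294 lower with 1 mouse left out. Without Sham 1 the median log2 change of all genes was 5.86, against 0.27 with it. With 1 mouse left out the log2 changes ran from -1.57 to 0.26 for Cxcl12, -3.57 to 7.96 for Penk, -1.27 to 0.42 for Col6a2, -1.91 to 0.54 for Fmod, -1.25 to 0.35 for Timp2, -1.95 to 9.35 for Htra3, -2.83 to 1.26 for Tgfbi, -2.44 to 10.69 for Igfbp3, -1.81 to 0.040 for Gas1, -1.54 to 10.68 for Cxcl10, -2.57 to 1.48 for C7, -2.66 to 9.64 for Hsd11b2 and -1.43 to 0.41 for Egr1. The settings that follow were chosen after seeing the data. With the fibroblasts that held distal tubule genes left out, 409 genes were higher and 312 lower, and 630 of the 779 calls were kept. Fibroblasts with at least 3 adventitial-type genes gave 285 higher, and there Postn (1.96) and C3 (0.30) had log2 changes above 0. Fibroblasts with fewer than 3 gave 189 higher and 37 lower with a median log2 change of all genes of 1.24, and the log2 changes of Fxyd2 (0.22), Col6a1 (0.84), Col6a2 (1.11), Eln (3.61), Mfap4 (0.94), Htra3 (7.40), Ltbp4 (0.061), Gas1 (0.14), Il6 (0.029), Nr3c2 (1.35), Klf2 (1.49), Klf4 (1.94) and Nr4a1 (0.45) were above 0; the cause was not tested.

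The replicate numbers of the 2 groups are only names: same-numbered mice deviated from their group means with correlations of 0.020, -0.046 and -0.025. A fit with the replicate number as a block called 124 genes higher and 96 lower, and 67 and 48 with every mouse in it, while the median log2 change was 0.29 and 0.33.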

Other observations

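A list of 19 imprinted genes was made after Meg3 and Rian had been seen among the largest falls, so it is a description. Of 12 members tested, 4 were lower by edgeR and none was higher by edgeR, by DESeq2 or at an unadjusted p under 0.05 (median log2 change -1.56, and 0 higher and 3 lower by DESeq2). Meg3, a noncoding RNA, lay at 969, 115 and 295 CPM in the Sham mice and 67.0, 50.8 and 43.3 CPM in the DOCA-salt mice. Peg3, a zinc finger gene, lay at 484, 403 and 98.4 CPM in the Sham mice and 47.9, 55.0 and 46.0 CPM in the DOCA-salt mice (log2 change -2.88 ± 0.29, adjusted p = 9.85e-21), and 94.1% of its Sham 1 UMIs came from 1 cell. Cluster 1 carried Meg3 at 748 CPM, and no other cluster was above 46.4 CPM.

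A list of 16 interferon-stimulated genes was also made after the values, those of cluster 6 among them, had been seen. In the comparison of the groups edgeR called 1 member higher, Iigp1 (log2 change 1.96 ± 0.48, adjusted p = 0.0015), whose call was lost without Sham 3 (adjusted p = 0.133), and none lower (0 by DESeq2 and 0 at an unadjusted p under 0.05). At an unadjusted p under 0.05, 6 members were higher (median log2 change of the list 1.08, or 0.73 with members at 0 in the tested Sham sums set to their bound, and 1 higher and 0 lower by DESeq2), as were 1400 of all 11645 genes. Sham 2 was above the DOCA-salt mice for Iigp1. Cxcl10, a chemokine induced by interferon, varied between the DOCA-salt mice at 10.4, 208 and 50.6 CPM and lay at 697 CPM in cluster 6 against 4.39 CPM in cluster 3. In the Sham mice Cxcl10 held 16, 0 and 0 UMIs, which put Sham 1 above DOCA-salt 1 and DOCA-salt 3. Its UMIs lay in 7, 33 and 24 DOCA-salt fibroblasts, and 1 cell held 50, 43.4 and 37.9% of those of its mouse.

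Cycling cells were few. Mki67, a gene of dividing cells, lay at 28.5, 0 and 0 CPM in the Sham mice and 3.05, 26.0 and 0.331 CPM in the DOCA-salt mice (adjusted p = 0.551). Of the UMIs of Sham 1 all 4 and of DOCA-salt 2 57 of 91 came from 1 cell, and among the clusters it was highest in cluster 4 at 39.0 CPM. Of 5 mesangial genes, 3 were higher and none lower by edgeR and 2 higher and 0 lower by DESeq2, with 1 lower at an unadjusted p under 0.05. Ptn, pleiotrophin, lay at 0, 807 and 197 CPM in the Sham mice and 774, 388 and 678 CPM in the DOCA-salt mice (log2 change 4.09 ± 0.53, adjusted p = 3.89e-12), with Sham 2 above all other mice. Of the proximal tubule genes 5 of 6 tested were lower by edgeR and 3 by DESeq2; Fxyd2 lay at 705, 288 and 1738 CPM in the Sham mice and 374, 463 and 483 CPM in the DOCA-salt mice (log2 change -1.16 ± 0.29, adjusted p = 0.00173, and adjusted p = 0.26 without Sham 3).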
